A study of Mus musculus with 6 samples.

Results

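Solute carriers are the membrane proteins that move sugars, amino acids, vitamins, metals, ions and metabolites across the plasma membrane and the membranes of organelles, and each family number names a group of related carriers. Their transcript levels were described in RNA-seq of type 2 conventional dendritic cells (cDC2s), antigen-presenting cells, from mouse spleen. The members were the rows of the deposited raw count table whose symbol starts with Slc and a digit and whose mean was at least 2 CPM (counts per 1000000 counts of the library) over the 6 libraries. Of 254 such rows, 6 carriers of hexoses, monocarboxylates and iron (Slc2a1, Slc2a3, Slc2a6, Slc16a1, Slc16a3 and Slc40a1) were left out by name and 55 were under the minimum, which left 193 members of 14535 rows. The rule used the mean level and no difference between groups. Slc22a4 at 2.16 CPM and Slc25a29 at 2.17 CPM lay just inside the minimum, and Slc24a5 at 1.9 CPM and Slc1a4 at 1.89 CPM just outside it.

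Libraries came from 3 samples of CD11c-Cre Irf4fl/fl mice, called IRF4-deficient here, and 3 samples of wild-type (WT) mice, all of the C57BL/6 strain and from spleen. Irf4 encodes a transcription factor of the interferon regulatory factor family. In the mutant its floxed alleles are cut by Cre, which the promoter of CD11c (Itgax) drives, so that other cells with an active CD11c promoter lose Irf4 as well. The labels do not say whether WT mice carried Cre or the floxed allele, and give no age, sort gate or animal of origin for the replicates. The spread behind each p-value is therefore that of libraries and may be technical. Total counts ran from 7949462 to 10609420 in IRF4-deficient and from 7421605 to 11459920 in WT libraries. Irf4 itself had 90.8, 65.3 and 84.0 CPM in IRF4-deficient libraries, against 291.8, 295.8 and 345.0 CPM in WT libraries, and fell by 1.95 ± 0.12 on the log2 scale (SE, adjusted p = 1.45e-09). All 14 markers listed for conventional dendritic cells and cDC2s were detected. In IRF4-deficient libraries 8 of them, the deleted Irf4 included, were called lower and 2, Itgax and Itgam, higher. Of all tested genes 10.5% were called lower and 9.87% higher. In bulk samples, fewer cells of a type and less RNA per cell cannot be told apart.

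Dendritic cells take up and present foreign material, and their carriers have roles beyond feeding the cell. Carriers of the plasma membrane supply amino acids and set the intracellular pH and chloride, those of endosomes and lysosomes export the products of digestion and help to acidify the compartment, and those of the mitochondrial inner membrane exchange metabolites with the cytosol. IRF4 binds DNA weakly alone, and with the factor PU.1 it occupies composite elements that join an ETS and an interferon-response half-site. Many carriers draw on ion gradients made by the sodium pump or the vacuolar proton pump.

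All 193 members were tested in a fit over 11934 genes (edgeR quasi-likelihood test, IRF4-deficient against WT, Benjamini-Hochberg adjustment over all tested genes), and a gene was called at an adjusted p under 0.05. Here 23 members (11.9%) were called higher, against 9.87% of all tested genes, and 22 members (11.4%) were called lower, against 10.5% of all tested genes. The shares of called members were thus near those of all genes. At least 2-fold changes were called for 12 members (6.22%) in the higher direction, against 3.81% of all tested genes, and for 8 members (4.15%) in the lower direction, against 3.57%. The libraries of the 2 genotypes did not overlap in 81 members (42.0%), against 35.6% of all tested genes, and 36 of these 81 were not called. The median log2 fold change was -0.07 over members and 0.00 over all tested genes, with interquartile ranges of -0.28 to 0.27 and -0.27 to 0.26. Members summed to 10350, 10230 and 10480 CPM in IRF4-deficient libraries and 10510, 10750 and 10940 CPM in WT libraries. Slc13a3, Slc15a2 and Slc22a4 passed the minimum only through the higher IRF4-deficient group, and so did Slc1a2 and Slc22a17, which were not called. The 3 called ones are counted among the 23 called higher and among the 12 at least 2-fold higher, so the minimum favoured these shares. Exons of 12 called members (Slc6a20b, Slc7a2, Slc7a7, Slc15a3, Slc16a9, Slc20a2, Slc25a23, Slc25a25, Slc30a4, Slc35e2, Slc37a2 and Slc43a2) overlap those of a gene on the other strand, and without a known strand setting their reads cannot be told apart.

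**Figure D1:**
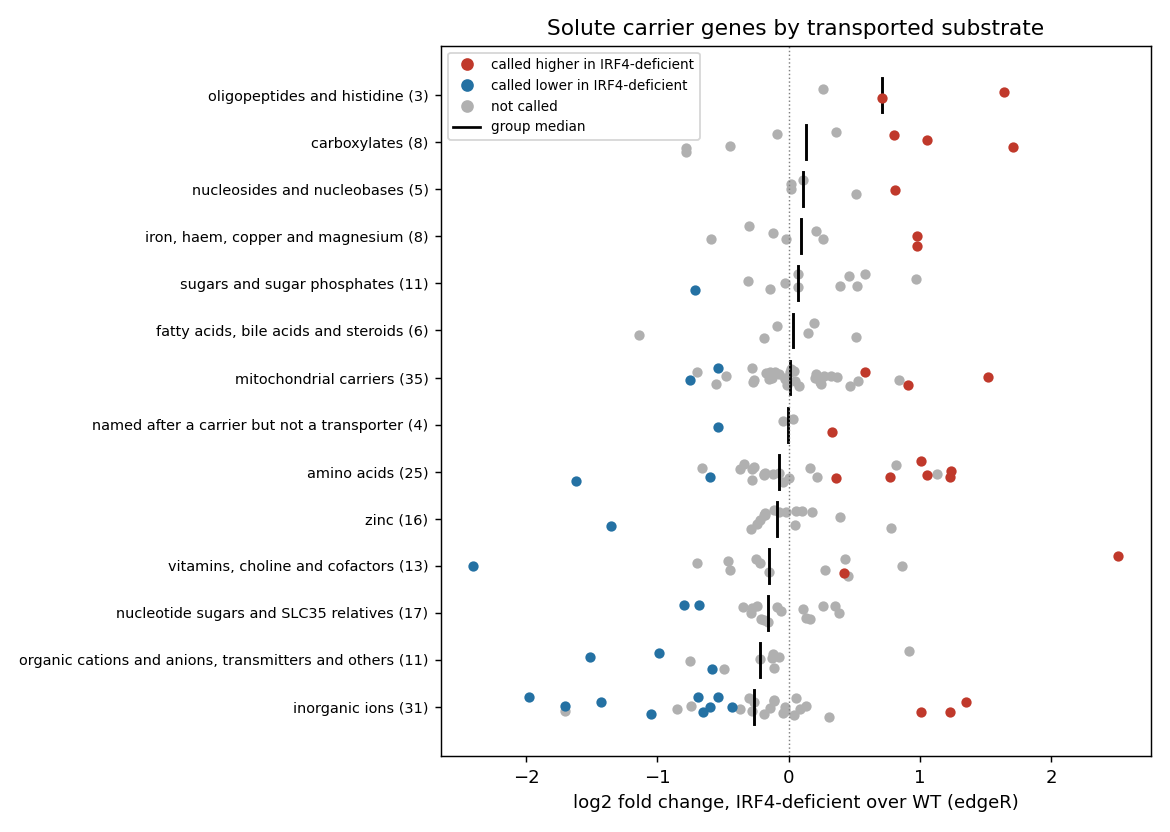
Log2 fold change (IRF4-deficient over WT, x axis) of each of the 193 members, in rows by transported substrate with the number of members in brackets. Red points were called higher and blue points lower in IRF4-deficient libraries, grey points were not called, and the black bar is the group's median. Called members lie on both sides of 0, and inorganic ions hold the most called lower, 9 of 31 (29.0%, against 10.5% of all tested genes).

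Per kilobase of exon, the most abundant member was Slc46a3, a lysosomal carrier, at 203 CPM per kb in IRF4-deficient and 237 CPM per kb in WT libraries. Next in the order of level over all 6 libraries came the choline-transporter-like Slc44a2 (91.2 and 68.0 CPM per kb), the neutral amino acid carrier Slc38a2 (73.2 and 76.8), the taurine carrier Slc6a6 (67.6 and 76.4) and the mitochondrial ADP/ATP carrier Slc25a5 (72.5 and 61.4), and the order among these 4 was not tested. Of these 5, Slc44a2 was called. Slc46a3 had 519.2, 477.4 and 500.5 CPM in IRF4-deficient libraries, against 543.2, 587.6 and 614.8 CPM in WT libraries, groups that did not overlap, with a log2 fold change of -0.22 ± 0.08 (SE, adjusted p = 0.0554). Within a genotype the median coefficient of variation of a member was 16.4% in IRF4-deficient and 13.4% in WT libraries.

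**Figure D2:**
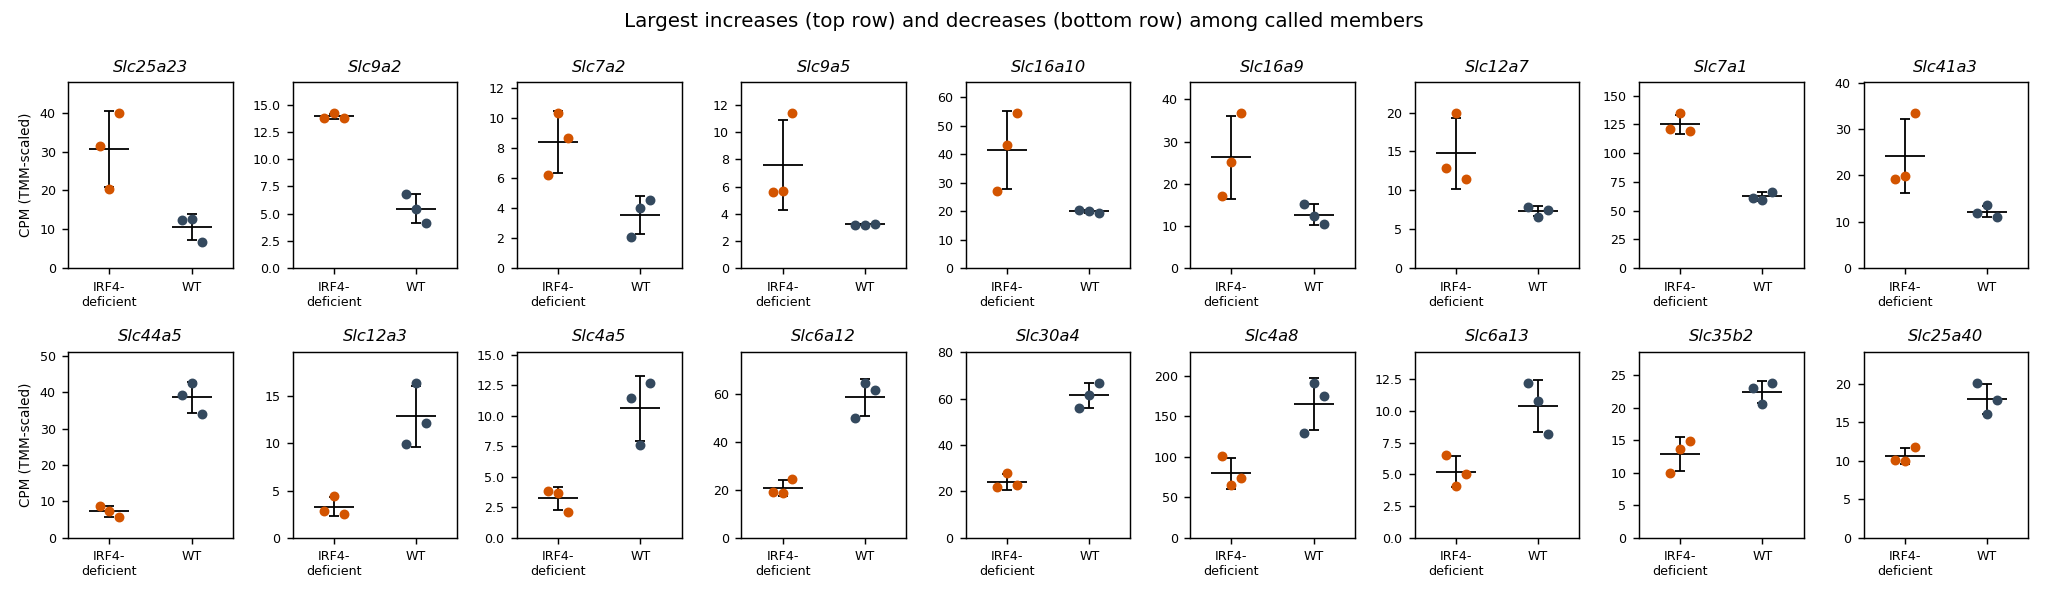
TMM-scaled CPM in each library for the 9 largest increases (top row) and 9 largest decreases (bottom row) among called members with a mean of at least 5 CPM and no overlap between groups, ordered by log2 fold change. Points are libraries, IRF4-deficient left and WT right, and the line and bars are the mean ± SD (n = 3 each). Slc44a5 had 5.79 to 8.84 CPM in IRF4-deficient and 34.1 to 42.6 CPM in WT libraries.

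Promoters of members are described first, since the factor deleted here binds a known sequence. The windows printed below are mostly ones that hold a match, and do not stand for the members at large. Windows of 300 bases (250 before to 50 after a transcription start, RefSeq, GRCm38.p6) were matched for 149 members and searched on both strands for the ETS-IRF composite element GGAANNGAAA and the interferon-response pattern GAAANNGAAA. These patterns differ in 1 base, so no run of letters matches both. The composite element stood in 9 of 202 windows of members (4.46%), against 2.72% of 32851 windows of all promoters, and the interferon-response pattern in 3 windows (1.49%), against 3.44%. Among windows of members called lower, 4 of 30 held the composite element (13.3%), and among those of members called higher 1 of 22 (4.55%). Among windows of members not called it was 4 of 150 (2.67%). The 30 windows come from 17 members and the 22 from 17, some with several overlapping starts. Windows are thus not independent, and the difference between these shares was not tested. Sequences run 5′ to 3′ on the gene's strand, with a match to the composite element in capitals. A match describes letters, not binding. Slc4a8 and Slc4a10 are bicarbonate carriers called lower, Slc7a1 and Slc7a7 carry cationic amino acids and were called in opposite directions, and Slc44a5, the called lower member with the largest fold, holds no match. The other called lower bicarbonate carriers, Slc4a5 and Slc4a7, hold no match either, nor do the upstream start of Slc4a10, the upstream start of Slc7a1 and 4 of the 5 windows of Slc7a7. The remaining called lower window with a match is that of Slc37a2. Slc6a12, Slc30a4 and Slc12a3, also called lower, hold no match and are not printed. The calls of Slc4a10, Slc7a7 and Slc37a2 were each lost in some fits without 1 library. The window of Slc4a8 is chr15:100761497-100761796 (plus strand), that of Slc4a10 chr2:62147628-62147927 (plus strand, an internal start), that of Slc7a1 chr5:148392766-148393065 (minus strand, an internal start), that of Slc7a7 chr14:54409423-54409722 (minus strand, an internal start) and that of Slc44a5 chr3:153973186-153973485 (plus strand).
Slc4a8: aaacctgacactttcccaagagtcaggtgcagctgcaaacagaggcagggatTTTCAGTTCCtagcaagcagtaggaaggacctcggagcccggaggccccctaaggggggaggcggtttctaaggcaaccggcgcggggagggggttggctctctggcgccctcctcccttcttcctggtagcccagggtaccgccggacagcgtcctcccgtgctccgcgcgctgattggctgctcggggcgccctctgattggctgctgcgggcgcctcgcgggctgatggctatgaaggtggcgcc
Slc4a10: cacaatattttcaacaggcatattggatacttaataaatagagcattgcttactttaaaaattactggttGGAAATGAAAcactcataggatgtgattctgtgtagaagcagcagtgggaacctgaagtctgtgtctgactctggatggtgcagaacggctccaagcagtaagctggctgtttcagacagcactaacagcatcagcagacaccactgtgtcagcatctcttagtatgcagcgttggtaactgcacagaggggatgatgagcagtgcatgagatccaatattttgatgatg
Slc7a1: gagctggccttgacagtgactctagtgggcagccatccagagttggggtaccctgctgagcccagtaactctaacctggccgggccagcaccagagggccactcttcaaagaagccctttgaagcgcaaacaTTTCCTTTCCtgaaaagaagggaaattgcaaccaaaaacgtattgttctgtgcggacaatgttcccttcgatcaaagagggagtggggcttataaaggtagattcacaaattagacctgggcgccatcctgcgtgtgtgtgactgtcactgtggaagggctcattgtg
Slc7a7: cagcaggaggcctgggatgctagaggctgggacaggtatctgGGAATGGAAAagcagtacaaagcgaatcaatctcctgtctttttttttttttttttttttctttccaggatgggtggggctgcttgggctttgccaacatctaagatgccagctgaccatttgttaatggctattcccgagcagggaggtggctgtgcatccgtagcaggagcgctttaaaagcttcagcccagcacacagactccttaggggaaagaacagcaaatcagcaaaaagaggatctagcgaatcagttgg
Slc44a5: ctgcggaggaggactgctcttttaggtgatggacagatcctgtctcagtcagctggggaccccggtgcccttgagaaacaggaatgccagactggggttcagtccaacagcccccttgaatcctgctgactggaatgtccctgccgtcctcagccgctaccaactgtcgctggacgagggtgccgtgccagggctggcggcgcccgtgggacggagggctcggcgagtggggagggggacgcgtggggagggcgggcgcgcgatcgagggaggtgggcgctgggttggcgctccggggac

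Of 6 bicarbonate carriers of the SLC4 family, 4 fell and none rose in IRF4-deficient cDC2s, where 10.5% of all tested genes were called lower and the family as such was not tested. The 4 are those that couple bicarbonate to sodium (Slc4a5, Slc4a7, Slc4a8 and Slc4a10), which load the cell with base. Slc4a8, the most abundant, had 100.5, 64.5 and 73.2 CPM in IRF4-deficient libraries, against 128.8, 190.8 and 174.6 CPM in WT libraries. The groups did not overlap, and the log2 fold change was -1.05 ± 0.18 (SE, adjusted p = 0.00131). Slc4a7 had 64.4, 74.5 and 78.4 CPM in IRF4-deficient libraries, against 113.0, 114.7 and 111.9 CPM in WT libraries (-0.65 ± 0.11, adjusted p = 0.00026). WT libraries lay within 3 CPM of each other here, and every IRF4-deficient library was lower. Slc4a5 had 3.87, 3.71 and 2.12 CPM in IRF4-deficient libraries, against 11.5, 7.64 and 12.7 CPM in WT libraries, and fell by 1.70 ± 0.34 on the log2 scale (adjusted p = 0.00114). Slc4a10 had 2.48, 1.11 and 3.67 CPM in IRF4-deficient libraries, against 5.81, 6.73 and 7.24 CPM in WT libraries (-1.43 ± 0.42, adjusted p = 0.0203). Both are low, and the call of Slc4a10 was lost without IRF4-deficient replicate 2 (adjusted p = 0.0689), WT replicate 2 (0.066) or WT replicate 3 (0.0703).

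The other members of the family, Slc4a1 and Slc4a2, exchange chloride for bicarbonate and were not called. Slc4a1, the band 3 protein of red cells, had 0.46, 4.82 and 3.34 CPM in IRF4-deficient libraries, against 8.99, 6.18 and 12.3 CPM in WT libraries (-1.70 ± 0.57, adjusted p = 0.0529). Erythroid markers, 6 of the 12 listed being in the table, summed to 19.9 to 50.4 CPM in IRF4-deficient and 34 to 71.8 CPM in WT libraries, and their part in Slc4a1 was not tested. The difference between the sodium-coupled carriers and the exchangers was not tested. Slc4a2 had 22.5, 18 and 18.6 CPM in IRF4-deficient libraries and 25.3, 15.2 and 24.0 CPM in WT libraries, which overlap. The family summed to 194.2, 166.7 and 179.3 CPM in IRF4-deficient libraries, against 293.3, 341.3 and 342.7 CPM in WT libraries. Leaving out 1 library at a time gave 3 to 5 called lower.

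Inorganic ion carriers as a group held 31 members, of which 3 rose (9.68%) and 9 fell (29.0%), against 9.87% and 10.5% of all tested genes. Their median log2 fold change was -0.26. Among the cation-chloride carriers (SLC12), Slc12a2, the sodium-potassium-chloride carrier that brings chloride into the cell, was the most abundant called lower member of all. It had 245.3, 319.6 and 272.9 CPM in IRF4-deficient libraries, against 419.0, 388.6 and 460.7 CPM in WT libraries (-0.60 ± 0.10, adjusted p = 0.000187). Its relative Slc12a3, the sodium-chloride carrier best known from kidney, had 2.85, 4.45 and 2.56 CPM in IRF4-deficient libraries, against 9.96, 16.4 and 12.2 CPM in WT libraries, and was 3.94-fold lower (-1.98 ± 0.32, adjusted p = 0.000132). Both sodium-driven chloride importers were thus lower in every IRF4-deficient library than in any WT library. The potassium-chloride exporter Slc12a7 had 12.9, 19.9 and 11.4 CPM in IRF4-deficient libraries, against 7.88, 6.55 and 7.51 CPM in WT libraries (1.01 ± 0.26, adjusted p = 0.00976), a call lost without IRF4-deficient replicate 2 (adjusted p = 0.082) or WT replicate 2 (0.0518).

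Sodium-proton exchangers (SLC9) had members in both directions. Slc9a2, an exchanger of the plasma membrane, had 13.8, 14.2 and 13.8 CPM in IRF4-deficient libraries, against 6.78, 5.45 and 4.10 CPM in WT libraries (1.35 ± 0.26, adjusted p = 0.000939). Slc9a5, also of the plasma membrane, had 5.61, 5.69 and 11.4 CPM in IRF4-deficient libraries, against 3.18, 3.18 and 3.28 CPM in WT libraries (1.23 ± 0.37, adjusted p = 0.0238). IRF4-deficient replicate 3 stands above the other Slc9a5 values, and the call was lost without it (adjusted p = 0.172) and without WT replicate 1 (0.0585), 2 (0.0717) or 3 (0.0593). The endosomal exchanger Slc9a9 had 79.0, 88.5 and 90.5 CPM in IRF4-deficient libraries, against 103.0, 115.9 and 128.8 CPM in WT libraries (-0.43 ± 0.11, adjusted p = 0.00949), a call lost without WT replicate 3 (0.068).

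Calcium and phosphate carriers had 1 called lower member each. Slc8a2, a sodium-calcium exchanger, had 36.9, 29.4 and 22.8 CPM in IRF4-deficient libraries, against 40.5, 56.8 and 46.0 CPM in WT libraries (-0.69 ± 0.18, adjusted p = 0.00958), a call lost without WT replicate 2 (0.0776). The more abundant exchanger Slc8a1 had 295.2, 302.5 and 326.5 CPM in IRF4-deficient and 313.7, 320.9 and 310.9 CPM in WT libraries, with a log2 fold change of -0.03 ± 0.08. Slc20a2, a sodium-phosphate carrier, had 18.7, 16.3 and 21.6 CPM in IRF4-deficient libraries, against 32.6, 23.9 and 26.1 CPM in WT libraries (-0.54 ± 0.19, adjusted p = 0.0466). That call is at the threshold and was lost without IRF4-deficient replicate 1 (0.105) or 2 (0.164) and without WT replicate 1 (0.214), 2 (0.0513) or 3 (0.0795). None of the 5 SLC26 anion exchangers was called.

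**Figure D3:**
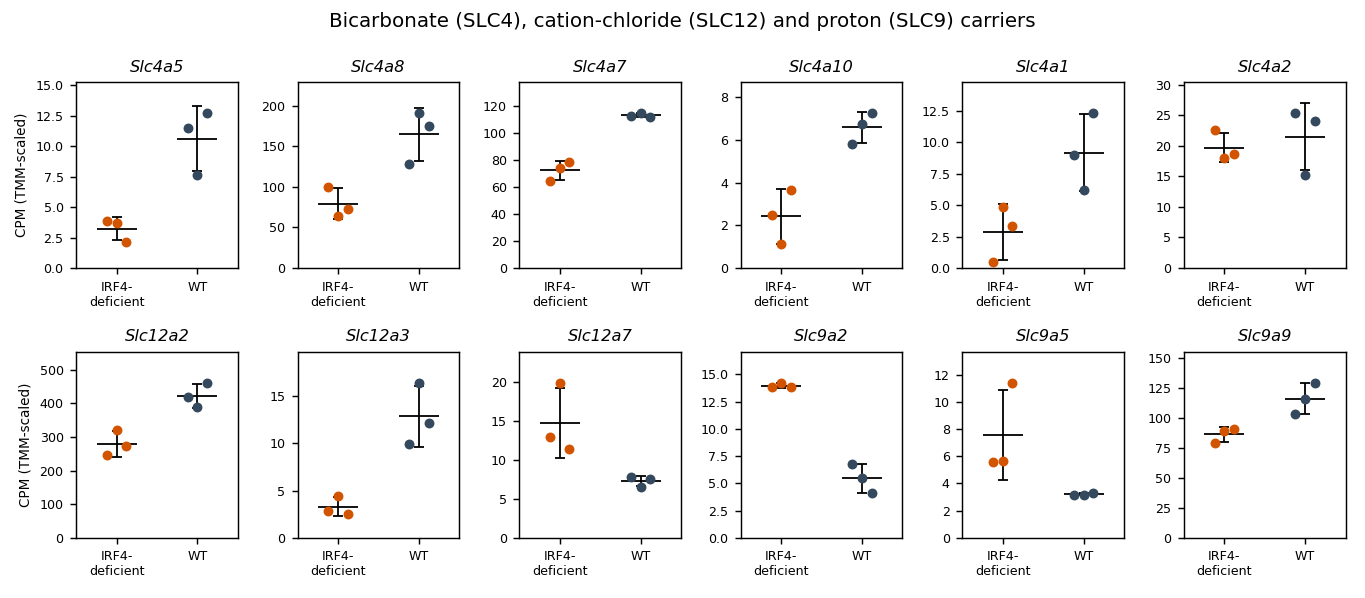
TMM-scaled CPM in each library for 12 carriers of bicarbonate, chloride and protons, with IRF4-deficient left and WT right in each panel. Points are libraries, and the line and bars are the mean ± SD (n = 3 each). Slc4a7, Slc4a8, Slc12a2 and Slc12a3 are lower in all 3 IRF4-deficient libraries than in any WT library, and Slc9a2 is higher, at 13.8 to 14.2 CPM in IRF4-deficient and 4.10 to 6.78 CPM in WT libraries.

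The sodium pump sets the gradient that the sodium-coupled carriers use. Its subunits are no solute carriers by name and were counted from a separate list. There 5 of 6 tested genes were called higher and 1 lower, against 9.87% and 10.5% of all tested genes. The median log2 fold change was 0.70. Atp1b1, a beta subunit needed for the pump's folding and transport to the surface, had 47.4, 36.8 and 37.0 CPM in IRF4-deficient libraries, against 3.18, 2.27 and 4.78 CPM in WT libraries. It was 12.1-fold higher (log2 fold change 3.60 ± 0.25, adjusted p = 3.86e-09). The lowest IRF4-deficient library stood far above the highest WT library. Atp1b3, another beta subunit, had 106.8, 114.1 and 88.6 CPM in IRF4-deficient libraries, against 77.2, 63.5 and 57.5 CPM in WT libraries (0.64 ± 0.13, adjusted p = 0.00134). The regulator Fxyd5 had 180.6, 214.9 and 247.2 CPM in IRF4-deficient libraries, against 148.8, 127.1 and 104.5 CPM in WT libraries (0.76 ± 0.13, adjusted p = 0.000522). Neither gene's groups overlapped. The gene called lower, Fxyd2, was singled out after its values were seen and had 0.92, 0 and 0.334 CPM in IRF4-deficient libraries, against 2.90, 2.18 and 1.64 CPM in WT libraries, a call lost without IRF4-deficient replicate 2 (0.114) or 3 (0.0881) and without WT replicate 1 (0.137), 2 (0.105) or 3 (0.0655).

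**Figure D4:**
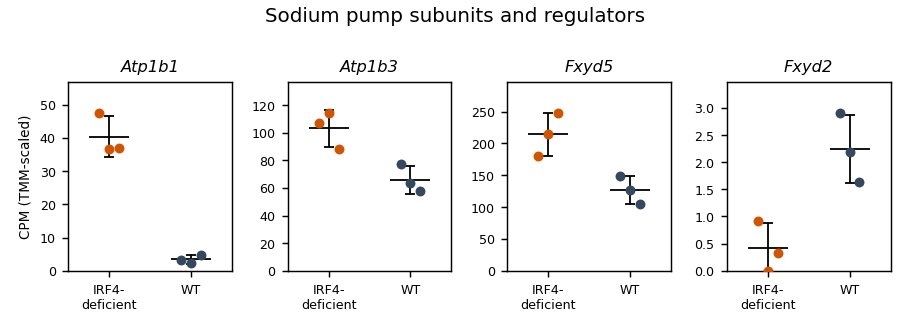
TMM-scaled CPM in each library for 4 genes of sodium pump subunits and regulators, with IRF4-deficient left and WT right in each panel. Points are libraries, and the line and bars are the mean ± SD (n = 3 each). Atp1b1 has 36.8 to 47.4 CPM in IRF4-deficient and 2.27 to 4.78 CPM in WT libraries, and the values of Fxyd2 stay below 3 CPM.

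Amino acid carriers held 25 members, of which 6 rose (24.0%) and 2 fell (8.0%), against 9.87% and 10.5% of all tested genes. Their median log2 fold change was -0.07. Slc7a1, the main carrier for arginine and lysine uptake in many cell types, had 121.0, 134.6 and 119.0 CPM in IRF4-deficient libraries, against 60.7, 59.5 and 66.5 CPM in WT libraries. It was 2.01-fold higher, with no overlap between groups (log2 fold change 1.01 ± 0.11, adjusted p = 1.52e-06). Its relative Slc7a2, the cationic carrier known from activated macrophages, had 6.17, 10.3 and 8.68 CPM in IRF4-deficient libraries, against 2.07, 4.0 and 4.51 CPM in WT libraries (1.23 ± 0.36, adjusted p = 0.0195), a call lost without IRF4-deficient replicate 2 (0.0824) or WT replicate 1 (0.082). Slc7a7, the light chain that exports cationic amino acids in exchange for neutral ones, moved the other way. It had 23.3, 24.0 and 38.1 CPM in IRF4-deficient libraries, against 50.9, 39.5 and 39.5 CPM in WT libraries (-0.60 ± 0.19, adjusted p = 0.0296). IRF4-deficient replicate 3 lay near the lower WT libraries, and the call was lost without IRF4-deficient replicate 1 (0.123) or 2 (0.128) or WT replicate 1 (0.135).

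Large neutral amino acids enter through SLC7 light chains that pair with the heavy chain Slc3a2, and through SLC43 carriers. Slc7a5, the light chain LAT1, had 33.2, 41.5 and 37.5 CPM in IRF4-deficient libraries, against 26.6, 15 and 25 CPM in WT libraries (0.77 ± 0.20, adjusted p = 0.00882), a call lost without WT replicate 2 (0.0627). Slc3a2 had 77.4, 76.4 and 84.8 CPM in IRF4-deficient libraries and 121.1, 98.1 and 66.2 CPM in WT libraries, which overlap, and was not called (-0.26 ± 0.17, adjusted p = 0.325). Slc43a2, an abundant carrier of large neutral amino acids, had 402.7, 426.9 and 451.2 CPM in IRF4-deficient libraries, against 313.4, 356.4 and 324.5 CPM in WT libraries (0.36 ± 0.08, adjusted p = 0.00378). The aromatic amino acid carrier Slc16a10 had 27.1, 43.3 and 54.4 CPM in IRF4-deficient libraries, against 20.3, 20.2 and 19.4 CPM in WT libraries (1.05 ± 0.21, adjusted p = 0.0013). WT libraries were nearly equal for Slc16a10, and the IRF4-deficient libraries differed up to about 2-fold among themselves. The cystine-glutamate exchanger light chain Slc7a11 had 25.2, 21.1 and 18.5 CPM in IRF4-deficient and 23.5, 21.6 and 37.4 CPM in WT libraries and was not called (adjusted p = 0.294).

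Sodium-coupled amino acid carriers of the SLC38 family, which take up glutamine, alanine and other neutral amino acids, held 6 members and no call. Slc38a2 had 768.4, 597.8 and 574.3 CPM in IRF4-deficient libraries and 620.4, 631.0 and 783.7 CPM in WT libraries, a difference of -0.07 ± 0.11 on the log2 scale. The lysosomal arginine sensor Slc38a9 had 94.3, 121.6 and 96.1 CPM in IRF4-deficient and 120.5, 107.5 and 127.8 CPM in WT libraries, also overlapping. Slc1a5, a glutamine and neutral amino acid exchanger, was not called (-0.19 ± 0.12). Slc1a3, a carrier of glutamate and aspartate, had 5.52, 6.30 and 8.80 CPM in IRF4-deficient libraries, against 3.04, 2.82 and 2.87 CPM in WT libraries (1.24 ± 0.36, adjusted p = 0.0195), a call lost without IRF4-deficient replicate 3 (0.0853) or WT replicate 2 (0.0665) or 3 (0.0533). Slc6a20b had 3.87, 1.48 and 1.78 CPM in IRF4-deficient libraries, against 6.78, 5.55 and 10.2 CPM in WT libraries (-1.62 ± 0.42, adjusted p = 0.00921), lost without WT replicate 3 (0.074). Reads of Slc6a20b and its near copy Slc6a20a may be shared, so this value is uncertain. Slc6a20a was not called (-0.66 ± 0.28, adjusted p = 0.108).

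Genes that sense amino acids were counted from separate lists. Of 20 tested genes of the Ragulator, Rag GTPases and amino acid sensing, 3 were called lower and none higher, against 10.5% of all tested genes called lower, and 1 to 3 were called lower when 1 library was left out. Sesn2, a leucine sensor that restrains mTORC1, had 34.6, 38.8 and 40.9 CPM in IRF4-deficient libraries, against 62.8, 50.2 and 61.1 CPM in WT libraries (-0.60 ± 0.14, adjusted p = 0.00344). Rptor, the scaffold of mTORC1, fell by 0.37 ± 0.12 on the log2 scale, a call lost without WT replicate 1 (adjusted p = 0.143), 2 (0.0781) or 3 (0.0559) or IRF4-deficient replicate 1 (0.111) or 3 (0.0508). Rragb, a Rag GTPase named for the count alone, fell by 0.97 ± 0.27, a call lost without WT replicate 3 (0.116). In the list of amino acid response factors, 2 of 8 tested genes were lower and none higher, Sesn2 again and Mthfd2, a mitochondrial folate enzyme, with 30.8, 29.7 and 23.7 CPM in IRF4-deficient libraries and 50.3, 58.5 and 58.7 CPM in WT libraries (-0.99 ± 0.15, adjusted p = 5.59e-05).

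Proton-coupled peptide carriers (SLC15) held 3 members, of which 2 rose and none fell, against 9.87% of all tested genes called higher. Of these, Slc15a2 passed the minimum level only through the IRF4-deficient group and is given as a description, which leaves 1 of the 2 others called. Slc15a3, which moves histidine and peptides such as bacterial muramyl dipeptide out of lysosomes, had 50.1, 64.4 and 50.9 CPM in IRF4-deficient libraries, against 36.1, 34.2 and 30.3 CPM in WT libraries (0.71 ± 0.14, adjusted p = 0.00129). Slc15a4, its relative needed for endosomal Toll-like receptor signalling, had 143.9, 121.0 and 126.6 CPM in IRF4-deficient and 108.1, 103.9 and 115.8 CPM in WT libraries, and was not called (0.26 ± 0.10, adjusted p = 0.0898). Slc15a2, a peptide carrier of the plasma membrane, had 6.72, 4.82 and 5.90 CPM in IRF4-deficient libraries, against 1.11, 3.27 and 0.956 CPM in WT libraries. This low gene lost its call without IRF4-deficient replicate 1 (0.0595) or WT replicate 1 (0.0679) or 3 (0.074). The family summed to 200.7, 190.2 and 183.4 CPM in IRF4-deficient libraries, against 145.3, 141.4 and 147.1 CPM in WT libraries. The vacuolar proton pump acidifies the compartments where Slc15a3 and Slc15a4 work. Against 9.87% and 10.5% of all tested genes, 4 of its 16 tested subunits were called higher and 1 lower. Among them Atp6ap1 rose by 0.46 ± 0.09 (adjusted p = 0.000857) and Atp6ap2 by 0.53 ± 0.11 (adjusted p = 0.00222), and Atp6v0a1 fell by 0.47 ± 0.13 (adjusted p = 0.0145). Atp6v1a and Atp6v0b were the others called higher, with calls lost without IRF4-deficient replicate 2 (0.0551 and 0.144) or WT replicate 3 (0.0797 and 0.131), and that of Atp6v0b also without IRF4-deficient replicate 3 (0.0672) or WT replicate 1 (0.121) or 2 (0.11). The call of Atp6v0a1 was lost without IRF4-deficient replicate 1 (0.0653) or WT replicate 2 (0.0639) or 3 (0.0642).

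Choline and vitamin carriers held 13 members, of which 2 rose (15.4%) and 1 fell (7.69%), against 9.87% and 10.5% of all tested genes. Slc22a4 is among the 2 that rose and passed the minimum level only through the IRF4-deficient group. Slc44a5, a member of the choline-transporter-like family (chr3:153973436-154271722, plus strand, GENCODE on GRCm38), had 8.84, 7.29 and 5.79 CPM in IRF4-deficient libraries, against 39.3, 42.6 and 34.1 CPM in WT libraries. It was 5.27-fold lower, the called lower member with the smallest p (-2.40 ± 0.20, adjusted p = 5.56e-08). The abundant family member Slc44a2 moved the other way, with 817.9, 730.5 and 825.1 CPM in IRF4-deficient libraries, against 590.4, 607.0 and 572.0 CPM in WT libraries (0.42 ± 0.08, adjusted p = 0.000502). Slc44a1, the general choline carrier, had 82.9, 59.0 and 69.8 CPM in IRF4-deficient and 72.7, 79.0 and 82.9 CPM in WT libraries and was not called (-0.15 ± 0.13, adjusted p = 0.487). Per kilobase, Slc44a5 was the lower of the 2 called genes in both genotypes, at 1.02 CPM per kb in IRF4-deficient and 5.42 CPM per kb in WT libraries. The family sum was 909.7, 796.8 and 900.7 CPM in IRF4-deficient libraries and 702.4, 728.7 and 689.1 CPM in WT libraries, most of it from Slc44a2.

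Slc22a4, a carrier of the antioxidant ergothioneine, passed the minimum level only through the IRF4-deficient group, and its values are few counts given as a description. It had 4.23, 4.08 and 2.56 CPM in IRF4-deficient libraries, against 0.415, 0.636 and 0.82 CPM in WT libraries. Its neighbour on chromosome 11, the carnitine carrier Slc22a5, had 8.56, 8.28 and 6.46 CPM in IRF4-deficient and 10.6, 15 and 12 CPM in WT libraries and was not called (-0.70 ± 0.25, adjusted p = 0.0606). Carriers of ascorbate, riboflavin, folate and acetyl-CoA were not called. Among genes of glutathione synthesis and use, 2 of 10 tested were higher and 1 lower, against 9.87% and 10.5% of all tested genes. Gsr, which reduces oxidised glutathione, had 88.9, 112.6 and 86.6 CPM in IRF4-deficient libraries, against 45.2, 51.1 and 37.7 CPM in WT libraries (1.10 ± 0.14, adjusted p = 1.03e-05). The stress factor Nfe2l2 was higher (0.84 ± 0.18, adjusted p = 0.00794), and Gclc, the rate-limiting subunit of glutathione synthesis, was lower (-0.74 ± 0.13, adjusted p = 0.000247).

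Mitochondrial carriers (SLC25) held 35 members, of which 3 rose (8.57%) and 2 fell (5.71%), both under the 9.87% and 10.5% of all tested genes. Their median log2 fold change was 0.01. The calcium-regulated carriers that exchange ATP-magnesium for phosphate, Slc25a23, Slc25a24 and Slc25a25, moved in different directions. Slc25a23 had 31.5, 20.4 and 39.9 CPM in IRF4-deficient libraries, against 12.3, 12.7 and 6.83 CPM in WT libraries (1.52 ± 0.26, adjusted p = 0.000534). Slc25a24 had 22.1, 21.9 and 27.5 CPM in IRF4-deficient libraries, against 14.7, 12.5 and 10.8 CPM in WT libraries (0.91 ± 0.20, adjusted p = 0.00269). Both were higher in each IRF4-deficient library than in any WT library. Slc25a25 had 25.1, 18 and 16.3 CPM in IRF4-deficient libraries, against 28.4, 30.0 and 28.5 CPM in WT libraries (-0.54 ± 0.19, adjusted p = 0.0453). Its call was lost without IRF4-deficient replicate 2 (0.139) or 3 (0.128) or WT replicate 1 (0.0853), 2 (0.138) or 3 (0.0939).

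Slc25a20, which exchanges carnitine for acylcarnitine and so brings long-chain fatty acids to oxidation, had 31.1, 37.8 and 30.0 CPM in IRF4-deficient libraries, against 23.9, 25.5 and 16.4 CPM in WT libraries (0.58 ± 0.19, adjusted p = 0.0318). The call was lost without IRF4-deficient replicate 2 (0.134) or WT replicate 3 (0.164). Slc25a40, a mitochondrial glutathione carrier, had 10.1, 10 and 11.8 CPM in IRF4-deficient libraries, against 20.1, 16.1 and 17.9 CPM in WT libraries (-0.75 ± 0.21, adjusted p = 0.0156), lost without IRF4-deficient replicate 2 (0.0524) or WT replicate 1 (0.0712). Its close relative Slc25a39 had 15.6, 17.1 and 15.6 CPM in IRF4-deficient and 14.2, 12.2 and 8.33 CPM in WT libraries and was not called (0.47 ± 0.23). The most abundant mitochondrial carriers were not called. Slc25a3, the phosphate carrier, differed by 0.01 ± 0.09 on the log2 scale. Slc25a37, the iron importer mitoferrin 1, had 209.6, 209.1 and 201.3 CPM in IRF4-deficient and 157.9, 177.1 and 200.5 CPM in WT libraries (0.21 ± 0.10, adjusted p = 0.142). Slc25a46, an outer membrane relative, had 57.3, 50.4 and 100.1 CPM in IRF4-deficient and 116.3, 111.6 and 109.1 CPM in WT libraries (-0.70 ± 0.23, adjusted p = 0.0608), with IRF4-deficient replicate 3 near the WT level. The ADP/ATP carriers Slc25a4 (-0.13 ± 0.10) and Slc25a5 (0.24 ± 0.11), close relatives that may share reads, were not called.

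Among 16 zinc carriers 1 fell (6.25%) and none rose, against 10.5% and 9.87% of all tested genes. Slc30a4, which moves zinc from the cytosol into vesicles (chr2:122681233-122702663, minus strand), had 21.7, 27.8 and 22.7 CPM in IRF4-deficient libraries, against 55.9, 61.6 and 66.7 CPM in WT libraries. It was 2.56-fold lower, with no overlap between groups (-1.35 ± 0.15, adjusted p = 1.39e-06). Its exons overlap those of 4930417H01Rik on the other strand. Slc30a1, the zinc exporter of the plasma membrane, had 42.7, 38.2 and 29.6 CPM in IRF4-deficient and 33.3, 33.4 and 39.2 CPM in WT libraries and was not called. None of the 10 SLC39 carriers, which bring zinc into the cytosol, was called, and they summed to 294.6, 311.2 and 308.5 CPM in IRF4-deficient libraries and 317.9, 287.8 and 320.4 CPM in WT libraries. Neither of the 2 tested genes of metallothioneins and the zinc response was called.

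Of 8 carriers of iron, haem, copper and magnesium, 2 rose and none fell, against 9.87% and 10.5% of all tested genes. Slc11a1, which removes iron and manganese from phagosomes, had 35.3, 45.7 and 49.8 CPM in IRF4-deficient libraries, against 22, 27.4 and 16.4 CPM in WT libraries (0.98 ± 0.19, adjusted p = 0.000888). Slc11a2, the divalent metal carrier of endosomes, had 35.2, 36.1 and 30.3 CPM in IRF4-deficient and 44.1, 36.3 and 45.2 CPM in WT libraries and was not called (-0.30 ± 0.15). Slc41a3, of the magnesium carriers, had 19.2, 19.8 and 33.4 CPM in IRF4-deficient libraries, against 11.9, 13.5 and 11.1 CPM in WT libraries (0.98 ± 0.23, adjusted p = 0.00439). The haem carrier Slc48a1 had 34.8, 47.5 and 56.3 CPM in IRF4-deficient and 38.0, 38.5 and 38.9 CPM in WT libraries and was not called. The haem exporter FLVCR1, under its older symbol Mfsd7b, was called lower and is counted in another list below. In the list of iron and haem handling, 3 of 12 tested genes were higher and none lower, against the same shares of all tested genes. They are the ferritin light chain Ftl1 (0.39 ± 0.12, adjusted p = 0.0312), Nfe2l2, and Blvrb, a biliverdin reductase named for the count alone (0.94 ± 0.23, adjusted p = 0.00529). The call of Ftl1 was lost without IRF4-deficient replicate 2 (0.0752) or 3 (0.126) or WT replicate 3 (0.137). All 3 genes were lowest in replicate 1 and highest in replicate 3 of the IRF4-deficient libraries, as were 12 of the 14 red pulp macrophage markers, whose sums were 2292, 3151 and 4003 CPM in IRF4-deficient libraries and 1690, 1844 and 1418 CPM in WT libraries. Hmox1, a haem-degrading enzyme, stands in both lists and was not called, with 258.2, 402.5 and 601.3 CPM in IRF4-deficient libraries and 155.2, 190.0 and 141.9 CPM in WT libraries. How many of all genes share this order was not counted, and the part of macrophage RNA in this list was not tested.

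Carriers of organic osmolytes and transmitters were lower where called. Of 11 organic cation, anion and transmitter carriers, 3 fell (27.3%) and none rose, against 10.5% of all tested genes called lower. Slc6a12, the betaine and GABA carrier used in osmotic adaptation, had 19.0, 18.5 and 24.5 CPM in IRF4-deficient libraries, against 49.8, 64.6 and 61.6 CPM in WT libraries. It was 2.84-fold lower (-1.51 ± 0.16, adjusted p = 1.09e-06). Slc6a13, a GABA and taurine carrier that lies beside Slc6a12 on chromosome 6, had 6.53, 4.08 and 5.01 CPM in IRF4-deficient libraries, against 12.2, 10.8 and 8.20 CPM in WT libraries (-0.99 ± 0.30, adjusted p = 0.0223). Its call was lost without IRF4-deficient replicate 2 (0.0822) or WT replicate 1 (0.097) or 2 (0.0817). Slc14a1, the urea carrier also found in red cells, had 91.1, 97.8 and 108.2 CPM in IRF4-deficient libraries, against 171.9, 152.8 and 118.1 CPM in WT libraries (-0.58 ± 0.13, adjusted p = 0.00257). The gap between the highest IRF4-deficient and the lowest WT library is small for Slc14a1. The part of erythroid RNA in it was not tested.

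Of 8 carboxylate carriers 3 rose (37.5%) and none fell, against 9.87% of all tested genes called higher. Each of the 3 had its highest value in IRF4-deficient replicate 3, and 1 to 3 were called higher when 1 library was left out. Slc13a3 among them passed the minimum level only through the IRF4-deficient group and is given as a description. This leaves 2 of the 7 SLC16 members of this group called. Slc16a9, of the monocarboxylate family, had 17.1, 25.1 and 36.7 CPM in IRF4-deficient libraries, against 15.2, 12.4 and 10.4 CPM in WT libraries (1.05 ± 0.25, adjusted p = 0.00588). Slc16a7, a high-affinity pyruvate and lactate carrier, had 18.5, 16.4 and 30.2 CPM in IRF4-deficient libraries, against 13.3, 11.8 and 12.4 CPM in WT libraries (0.80 ± 0.23, adjusted p = 0.0193). Slc13a3, a sodium-coupled dicarboxylate carrier, had 3.59, 3.21 and 12.4 CPM in IRF4-deficient libraries, against 1.80, 2.91 and 0.956 CPM in WT libraries. Without IRF4-deficient replicate 3 the adjusted p of Slc13a3 was 0.334 and that of Slc16a7 was 0.138. The call of Slc13a3 was also lost without WT replicate 1 (0.104) or 3 (0.129), and that of Slc16a7 without WT replicate 2 (0.075) or 3 (0.0559).

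Of 11 sugar and sugar phosphate carriers 1 fell (9.09%) and none rose, against 10.5% of all tested genes called lower. It is Slc37a2, a glucose 6-phosphate carrier of the endoplasmic reticulum, with 10.9, 14.2 and 16.1 CPM in IRF4-deficient libraries and 23.2, 26.1 and 17.6 CPM in WT libraries (-0.71 ± 0.22, adjusted p = 0.0245). The call was lost without IRF4-deficient replicate 1 (0.11) or 2 (0.0547) or WT replicate 1 (0.0702) or 2 (0.15). Its relative Slc37a1 had 43.8, 41.9 and 46.5 CPM in IRF4-deficient and 33.9, 32.8 and 34.4 CPM in WT libraries, groups that did not overlap, and was not called (0.39 ± 0.14, adjusted p = 0.0516). Of 17 nucleotide sugar carriers and SLC35 relatives 2 fell (11.8%) and none rose, again near the share of all genes. Slc35b2, which supplies the Golgi with the sulfate donor PAPS, had 9.94, 13.7 and 14.9 CPM in IRF4-deficient libraries, against 23.0, 20.5 and 23.8 CPM in WT libraries (-0.80 ± 0.21, adjusted p = 0.00888). The orphan Slc35e2 fell by 0.68 ± 0.13 on the log2 scale (adjusted p = 0.000794).

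Of 5 nucleoside and nucleobase carriers 1 rose and none fell, against 9.87% and 10.5% of all tested genes. Slc43a3, a purine nucleobase carrier, had 47.4, 30.8 and 36.5 CPM in IRF4-deficient libraries, against 20.7, 22.4 and 22.3 CPM in WT libraries (0.81 ± 0.17, adjusted p = 0.00214). Slc29a3, the lysosomal nucleoside carrier, had 180.4, 200.0 and 217.1 CPM in IRF4-deficient and 188.8, 195.8 and 206.0 CPM in WT libraries, a log2 difference of 0.02 ± 0.09. None of the 6 carriers of fatty acids, bile acids and steroids was called. Of 4 members that carry an Slc name and are no transporters, Slc9a3r1, the scaffold NHERF1, rose (0.33 ± 0.11, adjusted p = 0.0472) and the pseudogene Slc2a4rg-ps fell (-0.54 ± 0.15, adjusted p = 0.0164). The call of Slc9a3r1 was lost in 5 of the 6 fits without 1 library (lost values 0.0895 to 0.18), and held without IRF4-deficient replicate 3. That of Slc2a4rg-ps was lost without IRF4-deficient replicate 1 (0.0503) or 2 (0.0789) or WT replicate 3 (0.0918).

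Carriers whose symbols lack the Slc root were counted apart, with 4 of 23 tested genes called higher and 3 lower, against 9.87% and 10.5% of all tested genes. Without 1 library 1 to 3 were called higher and 2 to 3 lower. Of the 4 called higher, Slco2b1 lost its call without IRF4-deficient replicate 2 (0.144) or 3 (0.16) or WT replicate 1 (0.115) or 3 (0.156). Mtch1 lost it without IRF4-deficient replicate 1 (0.0539) or 2 (0.087) or WT replicate 1 (0.1), 2 (0.1) or 3 (0.0596), and Tmem104 without IRF4-deficient replicate 2 (0.0572) or WT replicate 1 (0.0679). Mfsd2a, called lower, lost its call without WT replicate 3 (0.0506). Slco3a1, an organic anion carrier, had 32.7, 39.2 and 47.2 CPM in IRF4-deficient libraries, against 20.2, 17 and 16.1 CPM in WT libraries (1.16 ± 0.18, adjusted p = 8.4e-05). Mfsd7b, listed under an older symbol of the haem exporter FLVCR1, had 81.2, 72.8 and 63.6 CPM in IRF4-deficient libraries, against 137.5, 164.8 and 196.0 CPM in WT libraries (-1.19 ± 0.13, adjusted p = 2.18e-06). Both differences exceeded the spread between replicates.

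Markers of other splenic cells were read beside these members, where 9.87% of all tested genes were called higher and 10.5% lower. The 14 red pulp macrophage markers, of which 8 were called higher and none lower, were all detected, with the sums given above beside the iron and haem list. Monocyte markers, with 4 of 9 tested called higher, summed to 2115, 2683 and 2829 CPM in IRF4-deficient libraries, against 1210, 1118 and 849.7 CPM in WT libraries. Of the 14 red pulp markers, 12 were lowest in replicate 1 and highest in replicate 3 of the IRF4-deficient libraries. Among the 23 members called higher, 7 had the same order (Slc11a1, Slc16a10, Slc16a9, Slc1a3, Slc41a3, Slc43a2 and Slc9a5), and 12 had their highest value in IRF4-deficient replicate 3. How many of all genes share this order or maximum was not counted, and the part of these cells in the carriers' differences was not tested. The rest of the 23 had other orders. Among these, Slc13a3, Slc16a7, Slc25a23, Slc25a24 and Slc44a2 still had their highest value in IRF4-deficient replicate 3. Slc7a1, Slc9a2, Slc15a3 and Slc12a7 had theirs in replicate 2, and Slc9a2 was nearly level across the IRF4-deficient libraries. The cDC1 markers, 5 of 8 called higher and 1 lower, summed to 257.9, 356.6 and 338.0 CPM in IRF4-deficient and 242.8, 239.7 and 248.6 CPM in WT libraries. No neutrophil marker passed the filter on low counts, and of the NK cell and platelet markers 1 each did.

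**Figure D5:**
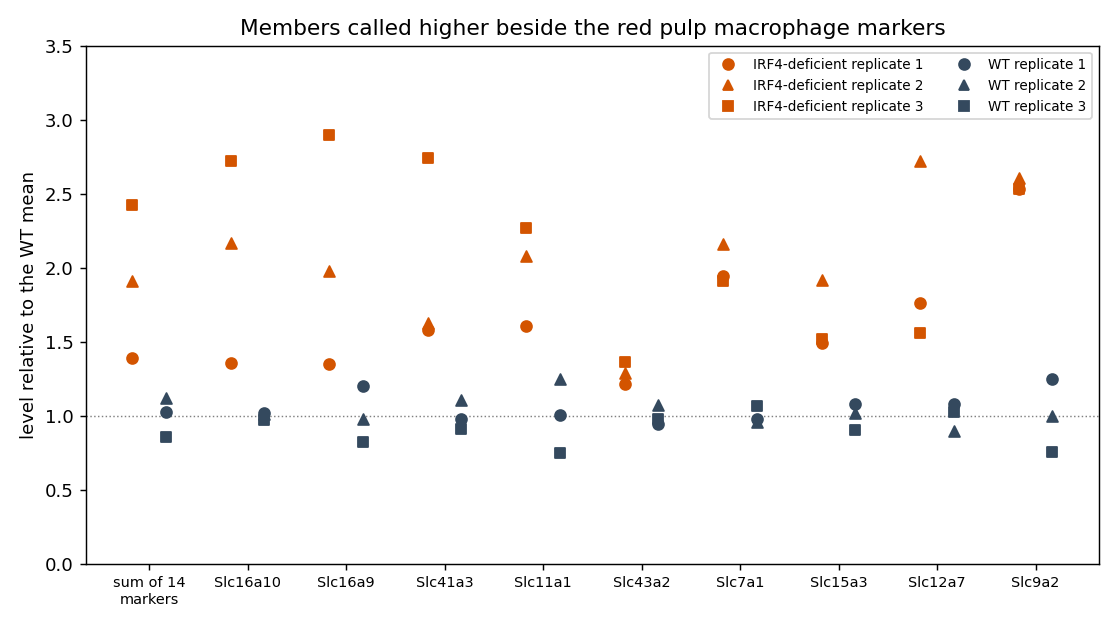
Level in each library divided by the WT mean (y axis) for the sum of 14 red pulp macrophage markers and for 9 members called higher. The 9 members were picked without a fixed rule. Slc1a3 and Slc9a5, which share the order of the marker sum over the IRF4-deficient libraries, are not plotted. Within each item the IRF4-deficient libraries are left and the WT libraries right, and the marker shape gives the replicate number. Slc16a10, Slc16a9, Slc41a3, Slc11a1 and Slc43a2 have their highest value in IRF4-deficient replicate 3, as the marker sum does, and Slc7a1, Slc15a3, Slc12a7 and Slc9a2 in replicate 2.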

How the data were processed

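The authors deposited raw counts per gene symbol for 6 libraries. Reads had gone through STAR and HTSeq on mm10, with DESeq2 also named, per the submitters' processing notes. The counting's strand setting and annotation were not found in the labels, and 43 members share exon bases (at least 100) with a gene on the other strand (12 of the 45 called). WT columns were tied to titles through the labels' source names.

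Genes were kept by filterByExpr, scaled by TMM and tested with edgeR 4.0.16 (quasi-likelihood, robust; R 4.3.3). SEs come from the F statistic, and CPM are TMM-scaled. The steps were tested on simulated data, which recovered 22.4%, 91.0% and 100.0% of 1.5-, 2- and 4-fold changes among 12001 tested genes. Replicates of a genotype differed beyond counting noise (chi-square per degree of freedom 7.66 to 15.9). Locations come from GENCODE M21 on GRCm38.

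Members and lists were chosen with earlier results of these data known. Named were Irf4, the 14 largest called increases and decreases (no overlap, at least 5 CPM), per substrate group the 3 smallest p and the highest level, members of at least 50 CPM, members of the same numbered families, and companion genes of at least 20 CPM; others were chosen after their values were seen. A few tested genes are counted but not reported here.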

Additional observations from a re-analysis of the deposited data

How the results depend on the processing

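The number of members called higher was 23, and lay between 17 and 25 when 1 library was left out. The number called lower was 22, and lay between 16 and 24. Across DESeq2 1.42.0, DESeq2 size factors, upper-quartile factors, limma-voom (limma 3.58.1), no filter, at least 5 CPM in 3 libraries, no robust shrinkage, removal of Rn45s and Malat1, the replicate block and other minimum levels, the counts were 19 to 24 higher and 20 to 27 lower. Of the 45 calls, 24 were also made in each fit without 1 library and 23 under every alternative. For the 171 members under the naming rule, 2546 alternative values were computed, of which 72 lost and 40 gained a call and 0 changed direction with a call on either side. Without 1 library, inorganic ion carriers had 1 to 3 members called higher and 6 to 9 lower, amino acid carriers 4 to 7 higher and 1 to 2 lower, and mitochondrial carriers 2 to 5 higher and 0 to 2 lower. Whether samples of the same replicate number were paired is not known. Replicate numbers follow the titles, and the WT columns of the count table carry other numbers. Deviations of libraries with the same number had correlations of -0.005, 0.051 and -0.011. These show no shared replicate effect and cannot exclude pairing. A replicate block gave 21 higher and 25 lower. The median log2 fold change over members lay between -0.05 and -0.09 in all fits. Depth limits members of a few CPM, such as Slc13a3, Slc15a2, Slc22a4 and Slc4a10, and changes near 1.5-fold were mostly missed in simulated data.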
